A study of Arabidopsis thaliana with 4 samples.

Results

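Among leaf transcripts of Arabidopsis thaliana, 72 of 8247 probe sets had their highest signal on the array of plants deprived of phosphate, by at least 1.5 times over each of the other arrays. A probe set is the group of short probes on an Affymetrix array that together report 1 transcript. The members were chosen by these signals themselves: signals under 25 were set to 25, the phosphate array had to reach 1.5 times each other array, and probe sets whose potassium signal was 2 or more times the full-nutrient signal, or at most 0.5 times it, were left out, as were gene symbols starting with UGT or TBL. Of 78 probe sets that were highest on the phosphate array, the potassium condition removed 6 and the symbol condition 0. Every ratio of the phosphate array below was therefore part of the choice and is given as a description.

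The study compared leaves after the loss of single major nutrients, with 1 array for each of 4 groups: the full nutrient solution, and solutions without nitrate, without phosphate and without potassium. All plants were of ecotype Col-5, without any transgene or mutation named in the labels, at growth stage 6.10. They grew on agar medium with sucrose to day 21 and then in hydroponics under constant light at 24 °C, and rosette leaves were harvested 28 h after nutrient removal. The phosphate-free solution lacked KH2PO4 and was given 0.125 mM extra potassium sulphate. The nitrate-free solution lacked calcium nitrate and was given 4 mM extra calcium sulphate, and the potassium-free one lacked KH2PO4 and KOH and was given 0.27 mM extra calcium dihydrogen phosphate. No nitrate salt appears in the label of the full solution, and how much nitrate those plants had is uncertain; KH2PO4 was missing from both the phosphate-free and the potassium-free solution. The title and the source name of the phosphate array carry different letters; the source name, which matches the written treatment, decided its group. Since each group is a single array, replicate error is unknown and no test or p-value is given. Where 4 signals are listed for a probe set, they stand in the order full nutrient, no nitrate, no phosphate, no potassium.

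Phosphate is taken up by roots and enters leaves as the building block of nucleic acids, membrane phospholipids and ATP. Plants short of phosphate are known to save it by replacing phospholipids, by secreting phosphatases and ribonucleases and by raising phosphate transporters, much of it under the transcription factor PHR1 and its SPX-domain inhibitors. Few genes of that response were named on this array: of 45 entries in the phosphate starvation list, the annotation named 2, PS2 and LPR1. PS2, a phosphatase gene known from phosphate-starved plants, had signals of 61.3, 41.0, 71.9 and 65.0 in that order. Its signal was thus highest without phosphate, but only 1.11 times that of the next array, and it is not a member. LPR1, a multicopper oxidase gene of the root response to low phosphate, lay below 25 on every array.

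The 72 probe sets include 26 that the annotation ties to 1 gene, 1 tied to several genes and 45 with no gene. The named ones stand for 24 genes, since CCT1 and ATPMEPCRB have 2 member probe sets each. On the phosphate array the members' signals ran from 37.8 to 3171.5 with a median of 154.65, against medians of 60.6 on the full-nutrient, 50.95 on the nitrate and 62.75 on the potassium array. The median phosphate ratio was 1.99 to the full-nutrient array, 2.25 to the nitrate array and 1.95 to the potassium array. Over all 8247 probe sets the median log2 ratio of the phosphate array to each other array was 0.0. However, only 47.5% (full nutrient) to 49.6% (no potassium) of them lay above the floor to which low signals were set. Ratios between floored signals are fixed by that floor, so the median of 0.0 cannot show whether the arrays were balanced. The background for these choices is that 0.946% of all probe sets were highest on the phosphate array by 1.5 times and 0.873% met every condition. Taken array by array, the phosphate signal was at least 1.5 times higher in 5.09% of all probe sets against full nutrient, 5.35% against no nitrate and 4.86% against no potassium, and as much lower in 3.42%, 4.63% and 5.53%. All 72 members meet the 3 higher comparisons by the rule, and nothing is read from that.

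**Figure D1:**
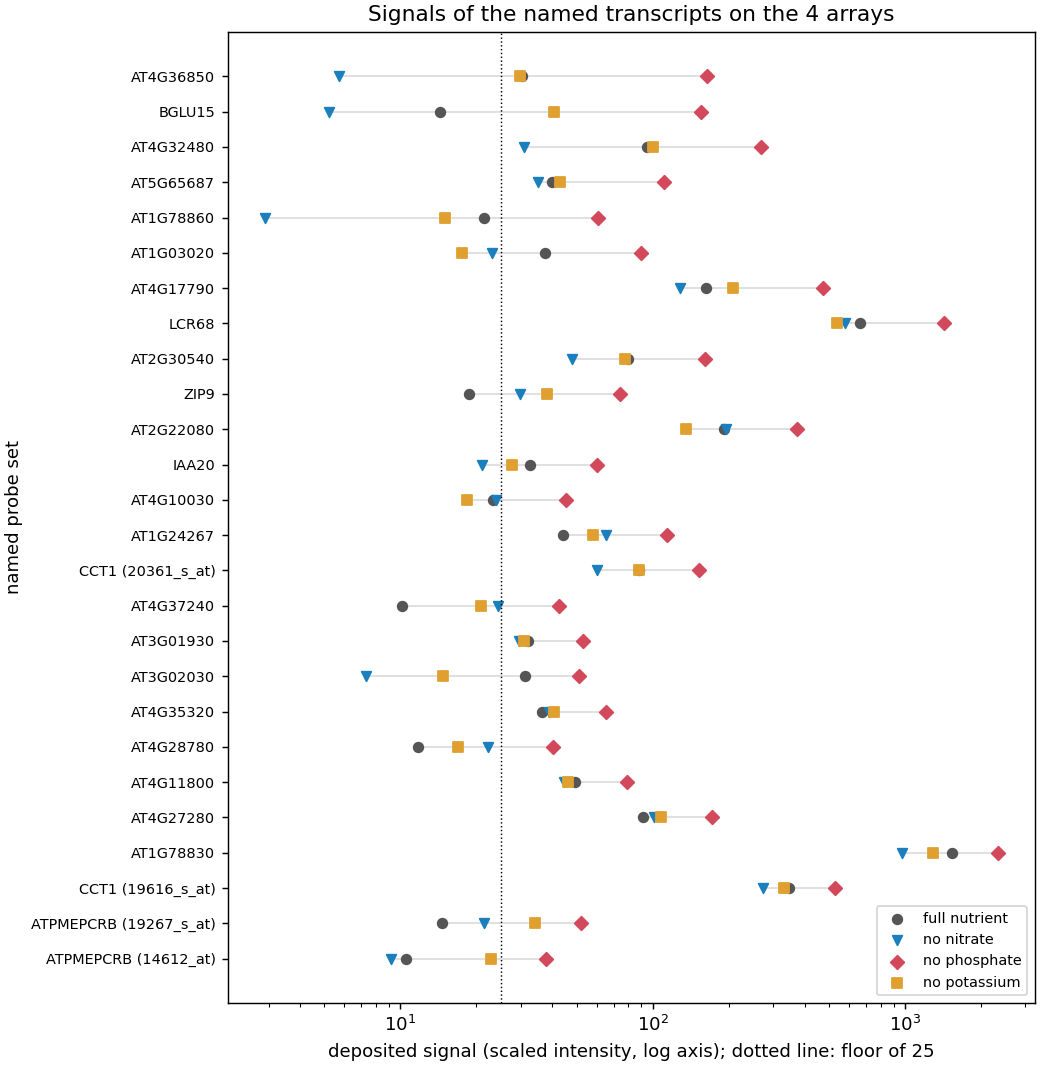
Deposited signals (log axis, scaled intensity) of the 26 probe sets with 1 named gene on the full-nutrient, no-nitrate, no-phosphate and no-potassium arrays, 1 point per array and no replicates; the dotted line marks the floor of 25. The no-phosphate point is the rightmost in each row, as the choice requires, and for several genes all other points lie left of the floor.

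AT4G36850 had the largest ratio to the next array. It encodes a PQ-loop repeat protein, a family of membrane proteins of which some move amino acids or other small molecules across vacuolar or lysosomal membranes. Its signals were 30.4 on the full-nutrient, 5.7 on the nitrate, 163.5 on the phosphate and 29.8 on the potassium array. The phosphate signal was 5.38 times the full-nutrient signal and 5.49 times the potassium signal, and at least 6.54 times the nitrate signal, which lay below the floor. The signals on the other arrays were below the floor or close to it.

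BGLU15 came next. It encodes a beta-glucosidase known for removing glucose from flavonol glycosides in shoots. Its signals were 14.4, 5.2, 155.2 and 40.5. The phosphate signal was 3.83 times the potassium signal and at least 6.21 times the full-nutrient and nitrate signals, both below the floor. The gene table of assembly TAIR10.1 places BGLU28 directly beside it, and that neighbour, looked up after its values were seen, had 40.8, 3.4, 77.4 and 633.8, highest without potassium. Of 9 named BGLU genes, a family read after these values were seen, 6 were above the floor on some array. BGLU15 was the only member probe set among the 9, beside 0.873% of all probe sets. BGLU25 was also highest without phosphate, but only 1.05 times the next array. BGLU33 had 30.1 on the phosphate array and lay below the floor on every other array. Its ratio of at least 1.20 is thus set by the floor. BGLU21, BGLU28 and BGLU46 were highest without potassium.

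The transporter genes among the members had modest signals. AT5G65687, a transporter gene of the major facilitator superfamily, had signals of 39.8, 35.0, 110.3 and 43.0. The other arrays lay within a narrow band, and the phosphate signal was 2.57 times the highest of them. ZIP9, of the zinc- and iron-regulated transporter family and known for high expression under zinc shortage, had signals of 18.7, 29.9, 74.1 and 38.1. Its phosphate signal was 1.94 times the potassium signal and at least 2.96 times the full-nutrient signal, and its potassium signal also lay at least 1.52 times above full nutrient. ZIP6, the other named gene of that family, had 53.4 on the phosphate and 43.8 on the full-nutrient array and is not a member.

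AT3G01930, a further major facilitator gene with a nodulin-like domain, was read by 2 probe sets that differ. The member probe set had signals of 32.0, 29.4, 53.0 and 30.9, 1.66 times the next array. The second probe set had 25.4, 15.3, 34.8 and 27.5, also highest without phosphate but only 1.27 times the next array. Both sets had phosphate highest and nitrate lowest, at signals close to the floor or, for nitrate on the second set, below it. They differ in the order of full nutrient and potassium. The member set carries the ending s, for probes shared with other transcripts, so it may not read this gene alone. The second set carries the ending i, for fewer probes than usual.

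Membrane lipid synthesis is represented by CCT1, whose product makes CDP-choline from phosphocholine, a regulated step on the way to phosphatidylcholine. One of its probe sets had signals of 88.2 on the full-nutrient, 60.3 on the nitrate, 153.1 on the phosphate and 88.1 on the potassium array. The other had 347.9, 272.3, 528.5 and 330.4. Both had phosphate highest and nitrate lowest, and their phosphate signals were 1.74 and 1.52 times the next array. Both carry the ending s, which marks sets whose probes are shared with other transcripts, so they may not read CCT1 alone. The second probe set lies just inside the limit.

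Redox genes contributed AT1G03020 and AT2G30540, which encode small glutaredoxins of the plant-specific CC type, proteins that use glutathione and act with transcription factors. AT1G03020 had signals of 37.3, 23.1, 89.5 and 17.6, with phosphate 2.40 times full nutrient. AT2G30540 had 79.7, 47.8, 161.2 and 77.9, with phosphate 2.02 times full nutrient. AT1G03020 was below the floor on both the nitrate and the potassium array. For AT2G30540 the nitrate array was the lowest, and the full-nutrient signal was 1.67 times the nitrate signal.

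LCR68, also called PDF2.3, encodes a plant defensin, a small cysteine-rich protein of the type that inhibits microbes or binds metals. Its signals were 660.3, 578.5, 1432.9 and 535.8. The other arrays lay close together and the phosphate signal was 2.17 times the highest of them. LCR69, 3 genes away in the gene table, had 175.8, 303.8, 316.4 and 401.3 and was thus highest without potassium. Of the 5 named defensin genes, 3 were above the floor on some array. LCR68 is the only member probe set among the 5, beside 0.873% of all probe sets, and nothing is read from so few.

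Lectin-type genes formed the single pair of member genes within 10 genes of each other. AT1G78830 and AT1G78860, 3 genes apart in the gene table, both encode curculin-like proteins with a mannose-binding lectin domain. AT1G78830 had signals of 1534.9, 976.1, 2333.7 and 1293.5, 1.52 times the next array. AT1G78860 had 21.4, 2.9, 60.6 and 15.0, so that its ratio of at least 2.42 rests on 3 arrays below the floor. Its probe set carries the ending i, for fewer probes than usual. AT1G78820, the gene directly beside AT1G78830 and looked up after its values were seen, did not share the pattern: its 2 probe sets had 77.3 and 216.7 on the phosphate against 78.1 and 225.2 on the full-nutrient array. How far probes of these related genes hybridise across genes was not tested.

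Other neighbours in the gene table were not members. Genes directly beside a named member had 23 probe sets on the array, of which 13 were at or below the floor on all arrays and so could not have been members. None of the other 10 was a member. Of the 23, 3 or 13.0% were at least 1.5 times higher on the phosphate than on the full-nutrient array, beside 5.09% of all probe sets, and nothing is read from so few. Of the 24 named genes 11 lie on chromosome 4, or 45.8%, which holds 31.9% of all named genes on the array.

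Among genes of signalling and trafficking, AT4G17790, which encodes a membrane protein of the SNARE-associated Golgi family, had signals of 163.2, 128.4, 473.9 and 207.9. Its phosphate signal was 2.28 times the potassium signal and 2.90 times the full-nutrient signal. AT4G27280, a calcium-binding EF-hand gene, had 91.1, 101.1, 172.4 and 107.7, with the other arrays close together and phosphate 1.89 times full nutrient. AT4G11800, which encodes a calcineurin-like metallophosphoesterase, had 49.3, 44.3, 79.2 and 46.0, 1.61 times the next array.

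IAA20, a gene of the Aux/IAA repressors of auxin response that lacks the usual degradation motif, rests on 1 of its 3 probe sets. That probe set had signals of 32.6, 21.1, 60.2 and 27.7. The other 2 lay between 0.7 and 1.8 on every array, far below the floor, and give no usable reading. The member probe set carries the ending i, which marks sets with fewer probes than usual. IAA18, a related gene, had 36.3, 66.7, 73.3 and 108.8 and was highest without potassium.

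Several members were below the floor on most or all other arrays and little above it without phosphate. ATPMEPCRB, a pectin methylesterase gene of the cell wall, had 10.5, 9.2, 37.8 and 22.9 on one probe set and 14.6, 21.5, 51.9 and 34.2 on the other. Both probe sets put the phosphate array first. On the first set all other signals lay below the floor, so they give no order of those arrays. On the second set the potassium array came second, and its ending s marks probes shared with other transcripts. Their ratios to the next array, at least 1.51 for the first and 1.52 for the second, are the lowest among the named members. AT4G28780, a GDSL-type lipase gene, had 11.7, 22.3, 40.2 and 16.9. AT4G10030, of the alpha/beta-hydrolase type, had 23.3, 24.0, 45.2 and 18.3, and AT4G37240 had 10.1, 24.3, 42.5 and 20.9. Their ratios, at least 1.61, 1.81 and 1.70, are set by the floor of 25 and not by a reading on the other arrays. In all, 9 members were at or below the floor on all other arrays and 14 on 1 or 2 of them, while 49 were above it on all arrays.

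AT4G32480, a gene of a plant family of unknown function, had the largest ratio to the nitrate array as computed with the floor. Its signals were 94.5 on the full-nutrient, 31.0 on the nitrate, 268.9 on the phosphate and 100.4 on the potassium array, so that phosphate was 8.67 times nitrate and 2.85 times full nutrient. The full-nutrient and potassium arrays were alike and the nitrate array stood 3.05 times below full nutrient. The other named members with no role given here had smaller ratios. Against the next array, AT2G22080 reached 1.91 with 371.4 on the phosphate array, and AT1G24267 reached 1.75 with 114.3. AT3G02030 reached 1.63 with 50.9, and AT4G35320 reached 1.61 with 65.3. With floored signals, AT2G22080 and AT1G24267 are the named members whose second-highest signal was on the nitrate array.

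The 46 members without a single named gene spanned ratios of 1.50 to 2.82 to the next array. Probe set 19692_at led them, with signals of 49.7, 38.4, 158.4 and 56.2. Probe set 20536_s_at had 151.7, 149.0, 575.7 and 217.5, and the set numbered next to it, 20537_at, also looked at after its values were seen, had 296.2, 283.2, 589.5 and 331.6. Probe set 17567_at, singled out after its values were seen, held the highest signal of any member, with 1297.7, 382.1, 3171.5 and 948.3. Consecutive numbers occurred in 4 runs with 9 members. For the run of 12816_at and 12817_g_at, the annotation ties the first to AT1G78830 and the second to 2 genes. In the other runs it names no gene, so whether such sets read 1 gene is not known. The number of separate transcripts behind the 72 probe sets may therefore be lower than 72. Endings other than the plain one made up 30.6% of the members and 24.3% of all probe sets. Some of these endings mark sets whose probes are shared with other transcripts or fewer than usual.

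**Figure D2:**
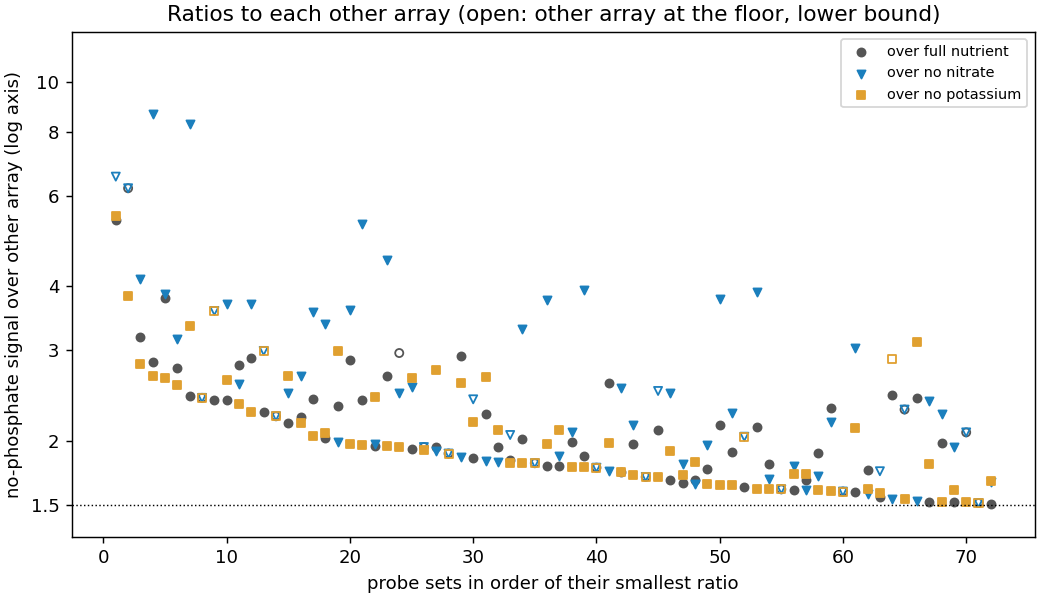
Ratio of the no-phosphate signal to the full-nutrient, no-nitrate and no-potassium signal (log axis) for each of the 72 probe sets in order of its smallest ratio, with floored signals; open symbols are lower bounds because the other array was at the floor of 25, and the dotted line is the limit of 1.5. Only the first 2 probe sets exceed 3 times over every other array, and for most of the rest the smallest ratio lies below 2.

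Most members lay not far above the limit. The smallest of the 3 ratios had a median of 1.79, reached 2 in 18 members and 3 in 2 members, AT4G36850 and BGLU15. Between 1.5 and 1.6 there were 14 members, and 28 probe sets lay less than 0.1 below the limit. The named probe sets nearest the limit inside were both of ATPMEPCRB (1.51 and 1.52) and a set of CCT1 (1.52). Nearest outside were AT5G46900 (1.48), SCL21 (1.48) and LCR (1.47). For AT5G46900, SCL21 and the ATPMEPCRB set at 1.51, all other arrays lay below the floor. Those ratios are therefore lower bounds set by the floor. For 69 genes with more than 1 measured set, their sets differed by a median of 0.24 in log2 phosphate over full nutrient. Such sets were read on the same arrays, so the value leaves out differences between plants, RNA samples and arrays. It is no measure of replicate error, which is unknown here.

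A higher floor, or 25 added to each signal in its place, left 14 of the 26 named probe sets short of the limit. With a floor of 50 in place of 25, 11 of them fell short of 1.5 times the next array. These were the sets of ZIP9 (log2 ratio 0.57), AT4G35320 (0.39), AT1G78860 (0.28), IAA20 (0.27), AT3G01930 (0.08) and AT3G02030 (0.03), both of ATPMEPCRB (0.05 and 0), and those of AT4G10030, AT4G28780 and AT4G37240, which were at 0. The other 3 met the limit with the floor of 50. They fell short when 25 was added to each signal in place of a floor: AT4G27280 (0.57), the set of CCT1 nearest the limit (0.57) and AT4G11800 (0.49). All signals of these 3 sets lay above the floor of 25, and adding 25 lowers such ratios too. AT4G36850 still met the limit, but its log2 ratio to the next array of 2.43 became 1.71 with the floor of 50 and 1.77 with the added 25.

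The second-highest array varied. Potassium was second in 30 members, full nutrient in 22 and nitrate in 11, and in 9 the others were tied at the floor. The 30 include AT4G17790, AT4G32480, ZIP9 and BGLU15, and the 11 include AT2G22080. The members thus do not share a single order of the other conditions.

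The level without nitrate was mostly below that in full nutrient. With floored signals 43 members were lower on the nitrate than on the full-nutrient array, 16 were higher and 13 were tied at the floor, with a median log2 ratio of -0.15. The share below full nutrient was 59.7% of the members, 23.1% of all probe sets, many of which are tied at the floor, and 45.5% of the 3352 probe sets with a phosphate signal of at least 1.5 times the floor. With a looser limit for membership the median was -0.01, and with a limit of 2 it was -0.31. At least 1.5 times lower were 13 members, or 18.1%, among them AT4G32480, AT1G78830 and AT2G30540, against a background of 2.24% of all probe sets and 4.59% of those 3352. At least 1.5 times higher were 3 members, or 4.17%, against 3.03% of all and 5.996% of those 3352. Of the 49 members above the floor on all arrays, 30 had nitrate as the lowest array, or 61.2%, against 35.8% of the 637 probe sets above the floor everywhere whose highest array was phosphate by any amount. These shares are descriptions, because the nitrate signal entered the choice. Of the sets above the floor on all arrays, the potassium condition left out 14484_at and AT2G20670, which were lowest without potassium. It also left out 17008_at and 18224_s_at, which were lowest without nitrate.

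Without potassium the members lay near full nutrient, as the choice demands. With floored signals 33 were higher and 30 lower on the potassium than on the full-nutrient array, and 9 were tied at the floor. ZIP9 and BGLU15 were the 2 members at least 1.5 times higher, or 2.78%, and 0 were at least 1.5 times lower. Over all probe sets 7.52% were at least 1.5 times higher and 6.81% at least 1.5 times lower, and nothing is read from the contrast because the rule bounded it.

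**Figure D3:**
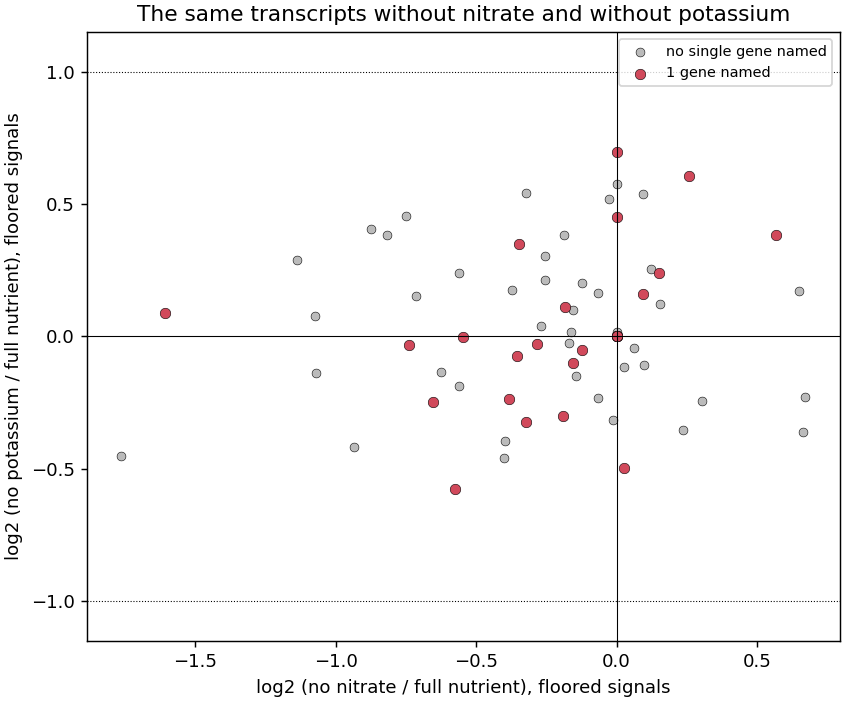
Log2 ratio of the no-nitrate (x axis) and of the no-potassium array (y axis) to the full-nutrient array for the 72 probe sets, floored signals; red points have 1 named gene, grey ones none or several, and the dotted lines mark the 2-fold bounds that the rule set on potassium. The cloud extends further to the left of 0 than to the right: 43 points are lower without nitrate and 16 are higher.

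The same rule was applied to each array in turn for comparison with the phosphate count. At 1.5 times over each other array, 78 probe sets were highest without phosphate, 77 without nitrate (0.934%), 269 without potassium (3.26%) and 27 in full nutrient (0.327%). The phosphate count was therefore close to the nitrate count and well below the potassium count at this limit. At 2 times, 19 probe sets were highest without phosphate, 13 without nitrate, 122 without potassium and 9 in full nutrient, and at 2.5 times 6, 0, 79 and 2. In the opposite direction 37 probe sets, or 0.449%, were at least 1.5 times lower on the phosphate array than on each other array.

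**Figure D4:**
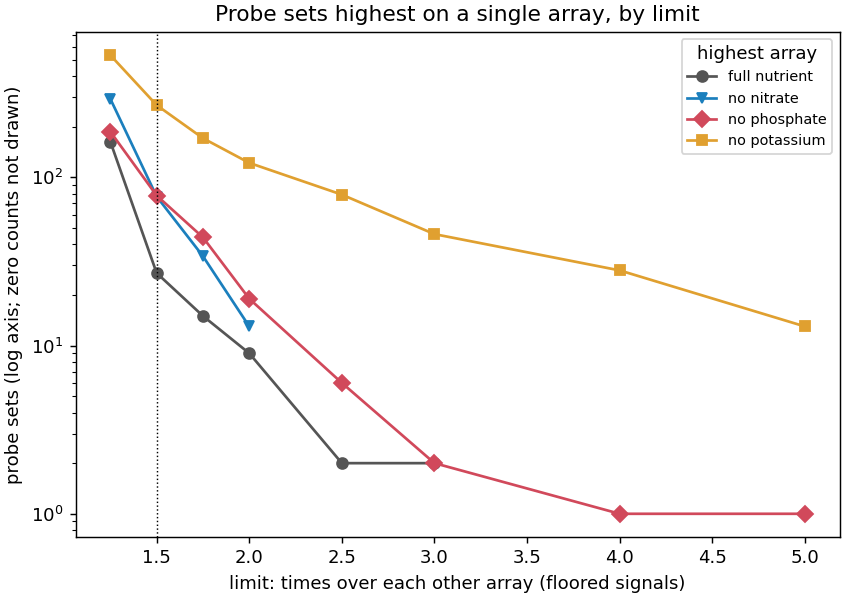
Number of probe sets (log axis) whose signal on a given array was at least the stated number of times that on each other array, for a range of limits up to 5, floored signals and 1 array per condition; counts of 0 are not drawn. The no-phosphate and no-nitrate lines meet at 1.5 with 78 and 77 probe sets, and the no-potassium line lies above the others at every limit.

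Gene lists for related responses held few named genes, 37 of 327 entries in 13 lists. Each gene was averaged over its probe sets on the log2 scale. By this measure 6 of the 37 were at least 1.5 times higher on the phosphate than on the full-nutrient array, and 0 were as much lower. The shares of all probe sets were 5.09% and 3.42%. Those shares count probe sets, many of them tied at the floor, and are not comparable with a count of genes. The 6 genes were the auxin and growth genes GH3.3 and EXO, the cold gene COR15B, the stress zinc finger gene STZ and the defensin genes LCR68 and LCR69. Of these LCR68 alone is a member. EXO, STZ and LCR69 were higher without potassium than without phosphate, GH3.3 had 120.2 against 128.4, and COR15B was higher without nitrate, at 742.3 against 644.6 without phosphate. With floored signals, the 5 named carbon starvation genes and the clock gene GI were within 1.5 times of full nutrient. For the carbon genes D2HGDH and MCCA the phosphate and full-nutrient signals were both at or below the floor. Their ratios are therefore set by the floor and are no reading of a change. Some of the probe sets averaged for GI also lay below the floor on both arrays.

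The labelled tissue was checked against markers of leaves and other organs. Of 30 leaf entries 8 were named and all 8 were above the floor; RCA, for Rubisco activase, had 4481.6 on the phosphate and 5766.0 on the full-nutrient array, and the median log2 ratio of the 8 genes was -0.25. The named root gene BGLU21 had 5.3 on the phosphate and 377.2 on the potassium array, and the flower and seed-coat gene BAN was below 1 on every array. No seed, dividing-cell, vascular or epidermal marker was named, so their part in the members' signals was not tested. Between 3921 and 4088 probe sets were above the floor on each array. The labels give the full-nutrient array 312 masked cells and the others 0, and an average background of 49.06 to 52.95; none of the 50 Affymetrix control probe sets met the 1.5-fold rule on any array. In leaf RNA as a whole, a change in the mix of cell types and a change within cells cannot be told apart.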

How the data were processed

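Biotin-labelled RNA from rosette leaves was hybridised to 4 Affymetrix arrays, 1 per group, per the labels. The authors deposited linear intensity values for each probe set on each array. The sources used here do not say how they were computed and scaled. The mean after trimming 2% at each end was 100.146 to 100.174, so the deposited intensity values had a common scale. Of 8297 probe sets, 50 controls were set aside. The platform annotation named 1 gene for 3794, several for 70 and none for 4383, and 3784 of the first matched the gene table of TAIR10.1.

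Signals were set to a floor of 25, and ratios against a floored signal are lower bounds. No differences were tested, because each group has 1 array; their number limits the precision. Every named member was to be given, in order of its smallest ratio, with the 2 leading unnamed sets. Promoter motifs were planned and not analysed here. The members, lists and rules were chosen with earlier results of these data known. The rule was checked on simulated data. Alternatives changed the floor, pseudocount, scaling, endings and limits. Python 3.11.15, pandas 2.3.3 and numpy 2.4.6 were used.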

Additional observations from a re-analysis of the deposited data

How the results depend on the processing

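The number of members was 72 and stayed between 50 and 95 with a floor of 10 (95) or 50 (50), a pseudocount of 25 (53), quantile normalization (74), median-ratio scaling (76), plain endings (50), no potassium condition (78) and UGT and TBL symbols kept (72); 49 were above the floor on all arrays, an alternative added after seeing the data. Of the 72, 63 remained with the floor of 10, 48 with that of 50, 46 with the pseudocount, 71 with quantile normalization and 72 with median-ratio scaling. Of the 26 named probe sets, 12 kept a ratio of at least 1.5 under every floor, scaling and ending alternative that holds them; the other 14 fell short with the floor of 50 (11) or the pseudocount (12). The limit set the count by construction. With the looser limit there were 177 members with median log2 ratios of 0.70, 0.73 and 0.68 to the full-nutrient, nitrate and potassium arrays, and 163, 293 and 533 probe sets were highest on these arrays. With a limit of 2 there were 18 members with medians of 1.28, 1.84 and 1.4, and counts of 9, 13 and 122. In the main setting the medians were 0.99, 1.17 and 0.96. With a floor of 10 the full-nutrient and nitrate counts were 73 and 128, with the pseudocount the nitrate count was 45, and with plain endings, where fewer probe sets enter, the potassium count was 174. One list gene was at least 1.5 times lower without phosphate with the floor of 10 and with the pseudocount (1 each), in place of 0. The 78 probe sets highest without phosphate became 103, 107 and 282 when the full-nutrient, nitrate or potassium array was left out of the comparison, also added after seeing the data. The causes of these shifts were not tested. No paired analysis was possible because each group has 1 array.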

Other observations

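The 6 probe sets that were highest without phosphate but left out for their potassium signal fall in opposite directions. In 4 of them, none with a named gene, the potassium signal was also 2 or more times full nutrient. The probe sets named here were chosen after their values were seen. Probe set 17511_s_at had signals of 19.2, 16.7, 361.3 and 236.6 in the same order of arrays, at least 14.5-fold higher without phosphate than in full nutrient. Probe set 18224_s_at had 46.3, 32.4, 345.7 and 174.2, 7.47-fold higher without phosphate. Both were also high without potassium, which is why the rule left them out. In the other 2 the potassium signal was at most 0.5 times full nutrient. AT2G20670, a gene of the same plant family of unknown function as AT4G32480, is one of them, with 141.5, 99.8, 286.3 and 59.1; both genes were 2 or more times higher without phosphate than in full nutrient, while without potassium AT4G32480 stayed at 100.4 against 94.5.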
